A study of Mus musculus with 15 samples.

Results

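Glutathione peroxidases and selenoproteins were followed as 7 genes, Gpx1, Gpx3, Gpx4, Gpx7, Gpx8, Txnrd1 and Selenop, of the 19456 genes in the deposited count table. The members were found by their symbols through the Ensembl identifiers of the table, all 7 were present, and all 7 passed the filter on low counts. Because they were selected on measured values of the same libraries, their levels and differences are given as a description, and no test supports them. How many members passed the test run across all genes is printed only beside the share of all genes that did. Gene expression was measured by RNA sequencing of 15 libraries from adult male wild-type C57BL/6 mice, with no treatment and no genetic change in any population. There were 3 libraries of Ly6Chi monocytes sorted from peripheral blood, the circulating cells that can seed gut macrophages. Macrophages were sorted from the small intestine by surface Tim-4 and CD4 into populations lacking both (Tim-4-CD4-), carrying only CD4 (Tim-4-CD4+) or carrying both (Tim-4+CD4+), with 4 libraries of each. Each library held the cells of 3 pooled mice, except monocyte replicate 2 with 4, so the spread between libraries is a spread between pools and sorts, not between single animals. The question was how expression in blood monocytes compares with that in gut macrophages, and how the 3 macrophage populations compare with each other.

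Glutathione peroxidases reduce hydrogen peroxide and lipid hydroperoxides to water or alcohols at the expense of glutathione. Several of them, with thioredoxin reductases and selenoprotein P, carry selenocysteine, an amino acid that contains selenium and is inserted at a UGA codon that would otherwise end translation. Selenoprotein P is secreted and carries selenium between tissues, and macrophages use these enzymes to hold in check the oxidants that they themselves produce.

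The codon at the active site sets the members apart, and for this reason the coding sequence around it is shown for each, from GENCODE M21 transcripts on GRCm38, 5′ to 3′, with the selenocysteine codon (TGA) or the cysteine codon at the matching place (TGT or TGC) in capitals.
Gpx1: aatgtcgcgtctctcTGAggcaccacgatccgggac
Gpx3: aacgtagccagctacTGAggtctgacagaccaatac
Gpx4: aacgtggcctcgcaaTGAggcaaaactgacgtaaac
Gpx7: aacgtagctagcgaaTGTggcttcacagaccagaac
Gpx8: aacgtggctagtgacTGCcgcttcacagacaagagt
Txnrd1: ctccagtctggctgcTGAggttaa
Selenop: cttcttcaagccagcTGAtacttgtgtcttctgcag
The TGA was codon 47 of 201 in Gpx1, codon 73 of 226 in Gpx3 and codon 73 of 197 in Gpx4, whereas Gpx7 and Gpx8 had no TGA inside their coding sequence. In Txnrd1 the TGA was codon 498 of 499, directly before the last sense codon and the stop codon, which close the sequence printed. Selenop held 10 TGA codons, the first at codon 59 of 380 and the other 9 between codons 259 and 377. Its last 17 codons before the stop hold 4 of them, which are shown because no other member carries more than 1.
Selenop, last 17 codons: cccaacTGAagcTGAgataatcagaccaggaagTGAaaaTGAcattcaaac
The Gpx3 window shared 27 of 36 bases with that of Gpx7 and 18 of 36 with that of Gpx1, and the windows of Gpx7 and Gpx8 shared 28 of 36.

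The members lie on 6 chromosomes of GRCm38, with positions of the whole gene from GENCODE M21. Gpx1 lies at chr9:108338903-108340343 on the plus strand, Gpx3 at chr11:54902453-54910377 on the plus strand and Gpx4 at chr10:80047166-80056439 on the plus strand. Gpx7 lies at chr4:108400390-108406961 and Gpx8 at chr13:113042753-113046410, both on the minus strand. Txnrd1 lies at chr10:82833951-82897712 and Selenop at chr15:3268547-3280508, both on the plus strand. Selenop shares 439 exon bases with Ccdc152 on the opposite strand. Whether reads were counted by strand is not given in the sources used here, so reads of the 2 genes in those bases cannot be told apart. Ccdc152 itself has no row in the count table, where every gene had at least 16 counts in total. Gpx4 has a processed pseudogene, Gpx4-ps2, to which its reads could in part also map, and only uniquely mapped reads were counted.

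Libraries held 39388763 to 151510641 counts on genes (median 63249039). Transcripts of the sorting markers followed the labels, with Ly6c2 at a mean of 1092 CPM (counts divided by the TMM-scaled library size in units of 1e+06) in monocytes and a mean of at most 1.72 CPM in a macrophage population, and Timd4 at 355.5 CPM in Tim-4+CD4+ macrophages and at most 1.70 CPM elsewhere. Cd4 rose from 22.9 CPM in Tim-4-CD4- to 530.5 CPM in Tim-4-CD4+ macrophages and 816 CPM in Tim-4+CD4+ macrophages. The 7 macrophage markers, led by H2-Ab1 in gut cells, had counts in all 4 populations. The summed level of 5 plasma cell markers, led by Igha, was 1.52 to 2.11 CPM in monocytes and 1932 to 5034 CPM in macrophage libraries, and that of 6 erythroid markers 69.1 to 89.8 CPM in monocytes and 3.75 to 15.5 CPM in macrophages. Tim-4+CD4+ replicate 1 stood apart most, with a chi-square per gene of 222.5 to 284.9 against the other replicates. Those differed by 40.4 to 78.0 from each other. The means of Gpx1, Gpx3 and Gpx4 are therefore also given without it, and other means include it. Tim-4-CD4+ replicate 3 differed by 65.7 to 136 from the other replicates of its population, which differed by 23.7 to 44.9. Monocyte replicates 1 and 2 differed by 172. The chi-square also grows with library depth. Within its population Tim-4+CD4+ replicate 1 held the highest summed markers of plasma cells (5034 CPM), B cells (72.4), epithelium (21.7), mesenchyme (143) and endothelium (49.0). The same held for eosinophil (17.9), erythroid (7.18) and macrophage (29467) markers. It was not the highest for T cells, dendritic cells, neutrophils, mast cells, platelets, monocytes or enteric neurons and glia.

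**Figure D1:**
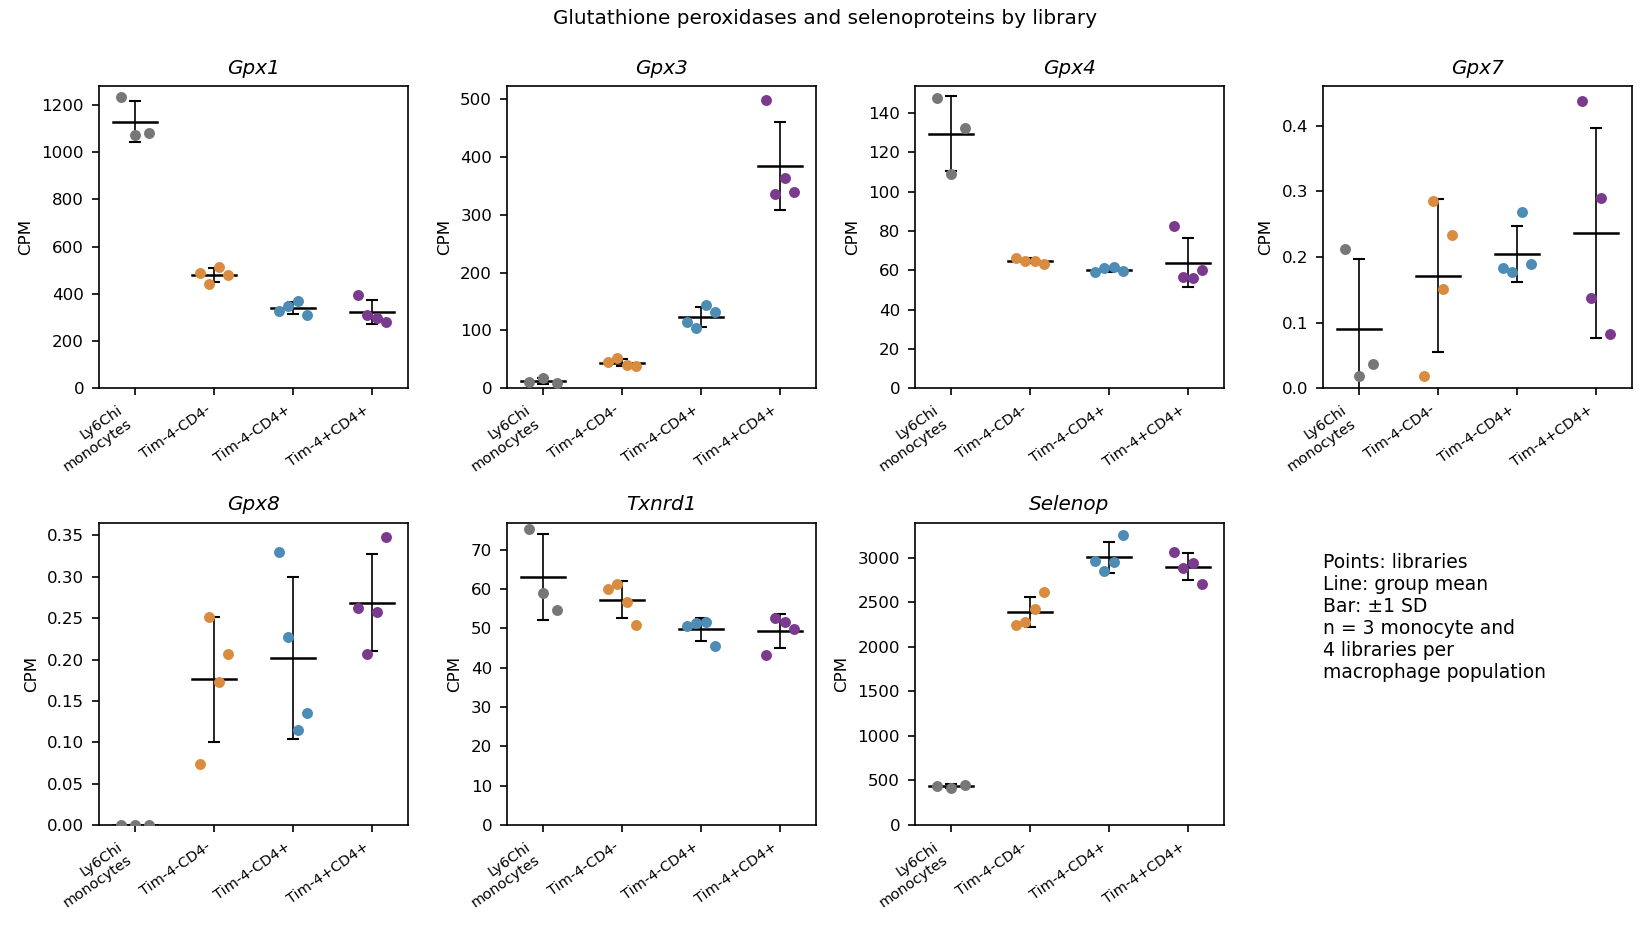
Expression of the 7 members in each library, in CPM on linear axes that start at 0 and differ between panels; points are libraries, lines group means and bars 1 SD (3 monocyte libraries and 4 of each macrophage population). Gpx3 rose from 8.70 to 17.7 CPM in monocytes to 336 to 498 CPM in Tim-4+CD4+ macrophages, while Gpx1 ran the other way.

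Gpx3, the secreted glutathione peroxidase of plasma, had the largest fold range across populations of the 5 members above the limit of detection. Its level was 11.6, 17.7 and 8.70 CPM in the 3 monocyte libraries and 46.0, 51.8, 39.65 and 39.4 CPM in Tim-4-CD4- macrophages. In Tim-4-CD4+ macrophages it was 114, 104, 144 and 131 CPM, and in Tim-4+CD4+ macrophages 498, 336, 363 and 339 CPM. No library of one population overlapped with any of the next, and the means stood in the order monocytes (12.7 ± 4.62 CPM, SD, n = 3), Tim-4-CD4- macrophages (44.2 ± 5.90, n = 4), Tim-4-CD4+ macrophages (123 ± 18.04, n = 4) and Tim-4+CD4+ macrophages (384 ± 76.7, n = 4). On the log2 scale the fitted difference from monocytes was 1.80 ± 0.21 (SE) for the Tim-4-CD4- population, 3.28 ± 0.23 for the Tim-4-CD4+ population and 4.92 ± 0.25 for that with both markers, or 3.48-fold, 9.69-fold and 30.2-fold. Between macrophages it was 1.48 ± 0.19 for Tim-4-CD4+ over Tim-4-CD4- libraries and 1.64 ± 0.19 for the further step to Tim-4+CD4+ ones. Without Tim-4+CD4+ replicate 1 the mean of that population was 346 ± 14.5 CPM (n = 3) and the last step was 1.49, and without monocyte replicate 2, the highest monocyte library, the 3 differences from monocytes were 2.15, 3.63 and 5.27. In bulk samples such as these, fewer cells that express a gene and less RNA of it per cell cannot be told apart.

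Some markers of other cell types moved with Gpx3. All 7 mesenchyme markers had counts in every macrophage population, led by Col3a1, and their sum was 61.7 to 94.2 CPM in the Tim-4-CD4- population, 75.5 to 97.0 CPM in the Tim-4-CD4+ and 103 to 143 CPM in the Tim-4+CD4+ population, against 1.41 to 2.20 CPM in monocytes, where Lum and Pdgfra had no count. The 5 endothelium markers, led by Esam in both CD4+ populations, summed to 11.75 to 28.04, 14.5 to 22.7 and 33.0 to 49.0 CPM in the same order of macrophages, and to 0.866 to 1.82 CPM in monocytes, where Cldn5 had no count. Among macrophages that rise was in Esam alone, with means of 3.29, 9.37 and 25.5 CPM, while Tie1 stood at 4.16, 2.95 and 2.34 CPM, Kdr at 4.89, 2.37 and 4.19 CPM and Cdh5 at 4.58, 3.33 and 5.24 CPM. The 5 markers of enteric neurons and glia summed to 5.39 to 7.51 CPM in Tim-4+CD4+ macrophages and to 1.08 to 2.10 CPM in the other macrophages, with most of the difference in Elavl4 (means of 0.167, 0.204 and 3.88 CPM). The eosinophil markers, 4 of 5 with a count and led by Siglecf, summed to 5.75 to 9.96, 9.30 to 11.2 and 12.01 to 17.9 CPM across the macrophage populations, mostly Siglecf itself (means of 7.01, 9.22 and 13.7 CPM). Where Gpx3 differed 2.78-fold, between the Tim-4-CD4- population and the Tim-4-CD4+ one, the ranges of the mesenchyme and endothelium sums overlapped. Their part in the Gpx3 result was not tested.

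Gpx1, the abundant cytosolic peroxidase, ran in the opposite direction. It stood at 1232, 1075 and 1083 CPM in monocytes and at 487, 441, 513 and 479.8 CPM in the Tim-4-CD4- libraries. The Tim-4-CD4+ libraries held 329, 349, 370 and 312 CPM and the Tim-4+CD4+ libraries 397, 312, 299.9 and 279.6 CPM. Monocytes lay above all macrophages and Tim-4-CD4- macrophages above both CD4+ populations, while the 2 CD4+ populations overlapped. The fitted log2 difference from monocytes was -1.23 ± 0.11, -1.73 ± 0.11 and -1.81 ± 0.11, that is 2.35-fold, 3.32-fold and 3.51-fold lower. Between macrophages it was -0.50 ± 0.10 for Tim-4-CD4+ macrophages and -0.58 ± 0.10 for Tim-4+CD4+ ones against the Tim-4-CD4- population, and -0.08 ± 0.10 between the CD4+ populations. Over the alternative fits that last value ran from -0.19 to -0.02. Without Tim-4+CD4+ replicate 1 the mean of its population was 297 ± 16.5 CPM (n = 3), against 322 CPM with it. The 4 monocyte markers, led by Ccr2, moved with Gpx1, at 4360 to 6179 CPM in monocytes and at 515 to 764, 67.8 to 122 and 7.86 to 18.7 CPM in the macrophages in the same order. Among macrophages that sum was nearly all Ccr2 (means of 660.0, 84.1 and 8.39 CPM), and the other 3 markers were at a mean of at most 1.99 CPM. Between the 2 CD4+ populations the marker sums did not overlap, whereas the Gpx1 levels did. The part of monocyte transcripts in the result was not tested.

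Gpx4 reduces lipid hydroperoxides within membranes and is the peroxidase that restrains ferroptosis. It was measured at 147, 109 and 132 CPM in monocytes, and the macrophage libraries lay between 56.4 and 82.4 CPM, below every monocyte library. Every Tim-4-CD4- library (63.4 to 66.5 CPM) lay above every Tim-4-CD4+ one (59.1 to 61.9 CPM), and the Tim-4+CD4+ libraries overlapped with both. The means were 64.9 ± 1.27, 60.4 ± 1.23 and 63.9 ± 12.5 CPM (SD, n = 4 each). The last mean fell to 57.7 ± 2.18 CPM (n = 3) without Tim-4+CD4+ replicate 1, which alone reached 82.4 CPM. The log2 difference from monocytes was -0.998 ± 0.12, -1.10 ± 0.12 and -1.02 ± 0.12, and between macrophage populations it was at most 0.10 in size, with an SE of 0.11. For Tim-4+CD4+ against Tim-4-CD4+ macrophages it was 0.08, and -0.06 without that library.

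Gpx7 and Gpx8, the peroxidases of the endoplasmic reticulum that use cysteine in place of selenocysteine, were near the limit of detection. Gpx7 had 1 to 45 counts per library, or at most 0.438 CPM, and 30 of its 34 monocyte counts fell in replicate 1. Its populations overlapped throughout. Gpx8 had no count in any monocyte library, which allows a mean of up to 0.0354 CPM by a floor of 3 counts per library, and 4 to 27 counts per macrophage library, or 0.0730 to 0.348 CPM. Against that floor Gpx8 was at least 4.97-fold higher in the Tim-4-CD4- population, 5.70-fold in the Tim-4-CD4+ and 7.59-fold in the Tim-4+CD4+ one, and it passed the filter on low counts only through the macrophage libraries. Its macrophage populations overlapped with each other.

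Txnrd1, the cytosolic thioredoxin reductase that keeps thioredoxin reduced, differed least among the members above the limit of detection. The monocyte libraries were at 75.3, 58.9 and 54.6 CPM and the Tim-4-CD4- libraries at 60.0, 61.3, 56.8 and 50.8 CPM, which overlapped. Tim-4-CD4+ macrophages were at 50.5, 51.3, 51.5 and 45.4 CPM and Tim-4+CD4+ macrophages at 43.1, 52.5, 51.6 and 49.8 CPM, all below the lowest monocyte library. The log2 difference from monocytes was -0.14 ± 0.11, -0.34 ± 0.11 and -0.35 ± 0.11, and these values depended on monocyte replicate 1, without which they were 0.03, -0.16 and -0.18.

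Selenop, selenoprotein P, had the highest level per kilobase of any member in every macrophage population. Monocytes held 438, 413 and 451 CPM and Tim-4-CD4- macrophages 2242, 2274, 2423 and 2614 CPM. In Tim-4-CD4+ macrophages the values were 2959, 2850.4, 2950.0 and 3253 CPM and in Tim-4+CD4+ macrophages 3069, 2885, 2935 and 2701 CPM. Both CD4+ populations lay above all Tim-4-CD4- libraries and overlapped with each other. The log2 difference from monocytes was 2.46 ± 0.09, 2.79 ± 0.09 and 2.74 ± 0.09, or 5.50-fold, 6.92-fold and 6.68-fold, and against Tim-4-CD4- macrophages it was 0.33 ± 0.08 in the Tim-4-CD4+ population and 0.28 ± 0.08 in the population with both markers. The first of these 2 was 0.29 without Tim-4-CD4+ replicate 4, the highest library.

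**Figure D2:**
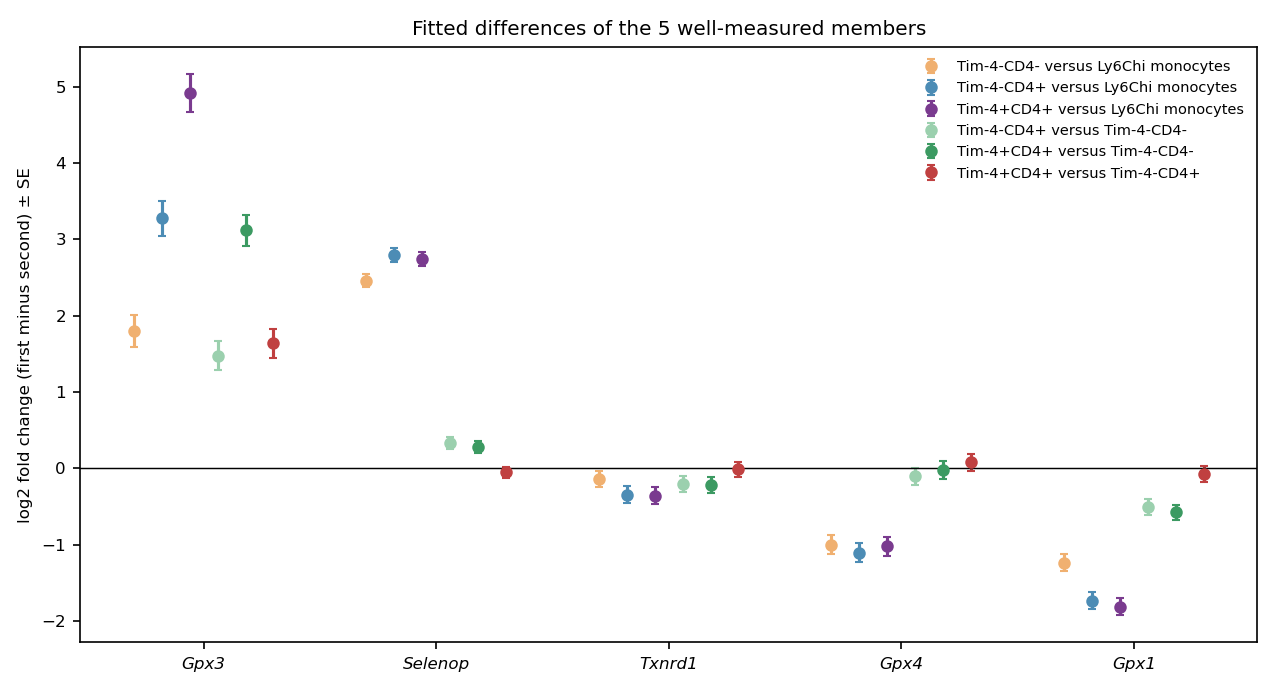
Fitted log2 fold change with its SE (edgeR quasi-likelihood fit over 15 libraries) for the 5 members above the limit of detection, in each of the 6 comparisons of populations, first minus second. Gpx3 and Selenop lay above 0 in each comparison with monocytes and Gpx1 and Gpx4 below it, with Gpx3 alone also apart from 0 by 1.64 between the 2 CD4+ populations.

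Among 15802 genes tested, 65.4% differed between Tim-4-CD4- macrophages and monocytes at an adjusted p under 0.05 (edgeR quasi-likelihood test, Benjamini-Hochberg), 37.3% higher and 28.1% lower in macrophages, and 5 of the 7 members did, 3 higher and 2 lower. For Tim-4-CD4+ macrophages against monocytes the share was 69.8%, with 39.1% higher and 30.7% lower, and 6 members were called. For Tim-4+CD4+ macrophages against monocytes it was 70.9%, with 39.5% higher and 31.3% lower, and again 6 members were called. Between macrophages the background was lower. Tim-4-CD4+ differed from Tim-4-CD4- macrophages in 10.1% of genes (4.52% higher and 5.53% lower) and in 3 members, Tim-4+CD4+ from Tim-4-CD4- macrophages in 23.1% (11.3% higher and 11.9% lower) and in 3 members, and Tim-4+CD4+ from Tim-4-CD4+ macrophages in 3.41% (2.07% higher and 1.34% lower) and in 1 member, Gpx3. These counts of members follow from how the members were chosen, and nothing is read from them. Txnrd1, counted in both comparisons of CD4+ populations with monocytes, did not pass in either without monocyte replicate 1, nor for Tim-4+CD4+ macrophages in the fit of only the 2 populations (-0.32 ± 0.13). Selenop, counted between the populations lacking Tim-4, did not pass there without Tim-4-CD4+ replicate 4. The 3 comparisons with monocytes share the monocyte libraries, and those between macrophages share libraries pairwise.

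Counted per kilobase of exon, so that genes of different length can be set side by side, the leading selenoprotein transcript was not the same in blood and gut. In monocytes Gpx1 was at 784 ± 61.6 CPM per kb, Selenop at 153 ± 6.77, Gpx4 at 75.2 ± 11.2, Txnrd1 at 8.88 ± 1.54 and Gpx3 at 6.98 ± 2.55 (SD, n = 3). In Tim-4+CD4+ macrophages Selenop was at 1019.6 ± 53.7 CPM per kb, Gpx1 at 224 ± 35.7, Gpx3 at 212 ± 42.3, Gpx4 at 37.1 ± 7.24 and Txnrd1 at 6.95 ± 0.60 (SD, n = 4). Gpx3, the lowest of these 5 in monocytes, thus stood beside Gpx1 in Tim-4+CD4+ macrophages. Within the 4 libraries Gpx3 read 274, 186, 200.1 and 187 CPM per kb and Gpx1 275, 217, 208 and 194, Gpx3 being the lower in each.

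Over the 22 selenoprotein genes in the table the summed level was 2149 ± 232 CPM per kb in monocytes, and 1692 ± 63.8, 1848 ± 60.4 and 1959 ± 192 in the macrophages in the same order, while its composition shifted. With replicate 1 included, the Tim-4+CD4+ libraries ran from 1805 to 2240 CPM per kb. They overlapped with the Tim-4-CD4+ libraries, at 1795 to 1919. Selenop made up 7.15 ± 0.71% of the sum in monocytes and 49.6 ± 1.72%, 57.2 ± 1.97% and 52.2 ± 2.77% in the 3 macrophage populations. Gpx1 made up 36.6 ± 1.05% in monocytes and 19.7 ± 1.08%, 12.8 ± 1.09% and 11.4 ± 0.68% in macrophages. The share of Gpx3 was 0.330 ± 0.141% in monocytes and 1.45 ± 0.24%, 3.67 ± 0.45% and 10.7 ± 1.06% in macrophages. Msrb1, a methionine sulfoxide reductase that is no member, took 31.8 ± 1.84% in monocytes and 2.06 to 2.26% on average in macrophages.

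**Figure D3:**
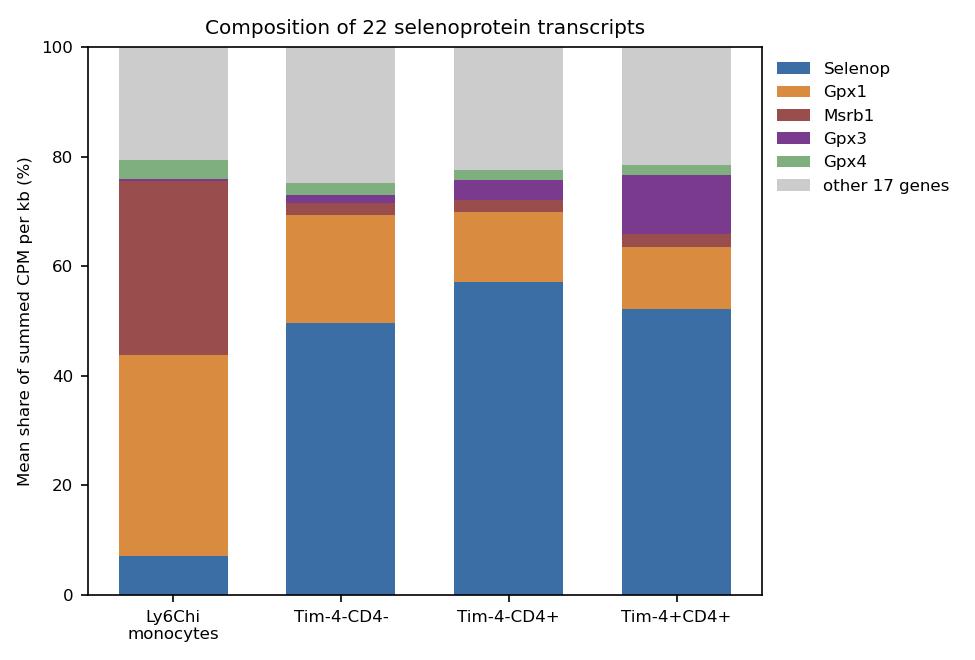
Mean share of each transcript in the summed CPM per kb of 22 selenoprotein genes, in percent, as stacked bars for the 4 populations. Gpx1 and Msrb1 filled 36.6% and 31.8% of the monocyte bar, and Selenop 49.6 to 57.2% of the macrophage bars.

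The 15 other selenoproteins tested moved in both directions. Against monocytes, 6 rose and 4 fell in Tim-4-CD4- macrophages, 5 rose and 6 fell in Tim-4-CD4+ macrophages, and 6 rose and 7 fell in Tim-4+CD4+ macrophages (66.7%, 73.3% and 86.7% called, against 65.4%, 69.8% and 70.9% of all genes), with a median log2 difference of -0.00, -0.17 and 0.03 over the list, beside 0.08, 0.11 and 0.10 over all genes tested. Selenom, Selenon, Selenok, Selenof and Txnrd3, the last a thioredoxin reductase, rose in all 3 populations, and Selenom went from 5.37 ± 0.96 CPM in monocytes to 43.0 ± 14.003 CPM in Tim-4+CD4+ macrophages. Msrb1 fell from 864 ± 144 CPM to 47.9 ± 3.84, 47.9 ± 3.91 and 55.6 ± 11.7 CPM, with log2 differences of -4.17 ± 0.15, -4.17 ± 0.15 and -3.96 ± 0.15, and Sephs2, the selenophosphate synthetase that is itself a selenoprotein, fell from 114 CPM to 18.7, 18.3 and 18.2 CPM. Selenoo and Selenot also fell in all 3 populations, by 0.40 to 0.64 on the log2 scale. Between macrophages, none of the 15 was called between the populations lacking Tim-4 or between the CD4+ populations, and Selenom and Selenon were higher in Tim-4+CD4+ than in Tim-4-CD4- macrophages (log2 0.76 ± 0.17 and 0.29 ± 0.07). The fall of Selenow in Tim-4+CD4+ macrophages, -0.39 ± 0.16, lost its call in 16 of 21 alternative fits. Dio2, with a mean share of 0.00023% of the selenoprotein sum in monocytes, was among the genes counted as rising. In Tim-4+CD4+ macrophages its rise, log2 2.52, lost its call in 3 of 20 alternative fits. Gpx2, the gastrointestinal glutathione peroxidase, had no count in monocytes and was at 0.507, 0.828 and 0.592 CPM in macrophages, at least 14.3-fold, 23.4-fold and 16.7-fold above the floor. The 7 epithelium markers summed to 9.07 to 26.7, 14.1 to 17.1 and 13.9 to 21.7 CPM in the same macrophages. In monocytes they summed to 0.486 to 1.75 CPM, and Epcam and Fabp2 had no count. The part of epithelial transcripts in the Gpx2 level was not tested.

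**Figure D4:**
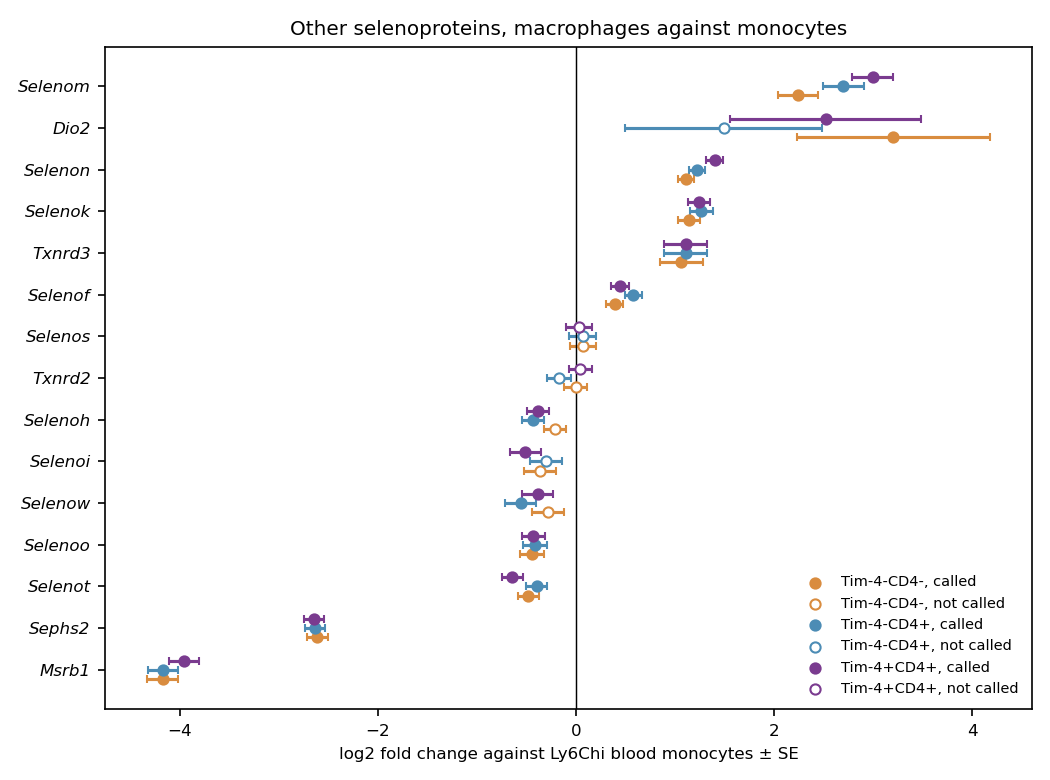
Log2 fold change with its SE of 15 other selenoproteins in each macrophage population against monocytes (edgeR fit over 15 libraries), ordered by their mean, with filled points for an adjusted p under 0.05. Sephs2 lay at -2.61 or below in all 3 populations, Msrb1 at -3.96 or below and Selenom at 2.24 or above.

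Of the 8 genes tested that make and insert selenocysteine, 4, 4 and 3 were called against monocytes, a smaller share than that of all genes, among them Scly, the lyase that recovers selenium from selenocysteine, which rose from 24.8 ± 4.605 CPM to 33.6, 42.2 and 46.3 CPM, while Secisbp2, the protein that binds the insertion element, fell by 0.57, 0.56 and 0.54 on the log2 scale. Scly was also called in both comparisons with Tim-4-CD4- macrophages, and the one with Tim-4-CD4+ macrophages lost its call in 12 of 21 alternative fits. Lrp8, the receptor that takes up selenoprotein P, stood at 3.52 CPM in monocytes and at 0.980, 0.518 and 0.448 CPM in macrophages, opposite in direction to Selenop.

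Glutathione synthesis and recycling supplies the peroxidases, and 7, 8 and 9 of its 12 tested genes were called against monocytes (58.3%, 66.7% and 75.0%), near the shares of all genes (65.4%, 69.8% and 70.9%). Gsr, the reductase that regenerates glutathione, fell from 1033 CPM in monocytes to 107 ± 4.82, 178 ± 16.4 and 228 ± 22.3 CPM, whereas Oplah, which recovers glutamate from 5-oxoproline, rose from 1.58 ± 0.16 CPM to 41.7 ± 3.57, 80.1 ± 4.97 and 144 ± 9.66 CPM. Ggt5, which cleaves extracellular glutathione conjugates, rose from 4.16 CPM to 69.2, 87.6 and 89.7 CPM. Slc7a11, the cystine carrier, rose by 1.77 to 2.66 and Gss, which completes glutathione, fell by 1.13 to 1.65 on the log2 scale. Gclc and Gclm, the subunits of the rate-limiting ligase, did not pass the test in any comparison, with log2 differences of -0.19 to 0.03.

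In the thioredoxin and peroxiredoxin list, 9, 8 and 8 of 10 genes were called against monocytes, and all but 1 of them were lower in each population. These were 90.0%, 80.0% and 80.0% of the list, against 65.4%, 69.8% and 70.9% of all genes. Of all genes, 28.1%, 30.7% and 31.3% were called lower. Prdx6, a peroxiredoxin that reduces phospholipid hydroperoxides, went from 94.6 CPM to 39.4, 25.1 and 23.3 CPM, and Srxn1, which repairs overoxidized peroxiredoxins, was the exception, higher by 1.96 to 2.24 on the log2 scale. Txnip, the inhibitor of thioredoxin, was lower than in monocytes in both populations lacking Tim-4 (log2 -0.77 ± 0.10 and -0.28 ± 0.10) and measured 0.20 ± 0.10, not called, in Tim-4+CD4+ macrophages. Of the 4 catalase and superoxide dismutase genes 3, 3 and 2 were called, with Cat higher in each population by 0.26 to 0.40. Sod3, the extracellular superoxide dismutase, had no count in monocytes and reached 2.93 CPM in Tim-4+CD4+ macrophages, at least 82.8-fold above the floor.

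Nrf2, encoded by Nfe2l2, is the transcription factor that drives many genes of this defense, and 6, 6 and 7 of 8 of its regulators and targets were called against monocytes. These were 75.0%, 75.0% and 87.5% of the list, against 65.4%, 69.8% and 70.9% of all genes. Nfe2l2 rose from 233 CPM to 698, 687 and 672 CPM, and the regulators Keap1 and Bach1 fell. Osgin1 rose from 7.18 CPM to 35.5, 53.2 and 71.3 CPM, and G6pdx, which makes NADPH, fell from 435 CPM to 124, 107 and 107 CPM. Nqo1, called only in Tim-4+CD4+ macrophages, lost its call in 4 of 21 alternative fits. Hmox1 was not called, at 134 CPM in monocytes and 135 to 182 CPM in macrophages. In the lipid peroxidation list 4 of 6 genes (66.7%) were called in each population, near the shares of all genes. Acsl4 and Alox15 were higher and Aifm2 and Gch1 lower, and Gch1 fell by 1.53, 2.29 and 2.36. Alox15 had at most 3 counts in any monocyte library. Over the pooled libraries of each macrophage population it stood at 0.687, 0.253 and 0.337 CPM. Over all 65 pathway genes tested 45, 46 and 48 were called against monocytes (69.2%, 70.8% and 73.8%), near the shares over all genes.

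Fewer pathway genes differed between macrophages, 11 for Tim-4-CD4+ macrophages and 17 for Tim-4+CD4+ ones against the Tim-4-CD4- population, and 3 for Tim-4+CD4+ against Tim-4-CD4+ (16.9%, 26.2% and 4.62% of those tested, against 10.1%, 23.1% and 3.41% of all genes). The last 2 shares are near those of all genes. The 3 called in every one of these comparisons were Oplah, Gsr and Txnip, each among macrophages lowest in the Tim-4-CD4- and highest in the Tim-4+CD4+ population, the order of Gpx3. Txnip read 524 ± 61.1, 737 ± 57.1 and 1025 ± 50.3 CPM, and the 3 populations did not overlap in Txnip, Oplah or Gsr. Because these genes were picked by passing all 3 comparisons, nothing is read from that lack of overlap. The share of all genes called in all 3 was not counted. For the last step the log2 differences were 0.85 ± 0.09 in Oplah (adjusted p = 1.4e-05), 0.47 ± 0.09 in Txnip (adjusted p = 0.0074) and 0.36 ± 0.10 in Gsr (adjusted p = 0.049), and Gsr lost its call in 16 of 21 alternative fits. In the other direction Prdx6 fell by 0.65 and 0.76 and Gch1 by 0.76 and 0.83 from Tim-4-CD4- to the 2 CD4+ populations, as Gpx1 did by 0.50 and 0.58. Only 7 genes were called for Tim-4-CD4+ against Tim-4-CD4- macrophages without Tim-4-CD4- replicate 4, Tim-4-CD4+ replicate 2 or Tim-4-CD4+ replicate 4.

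**Figure D5:**
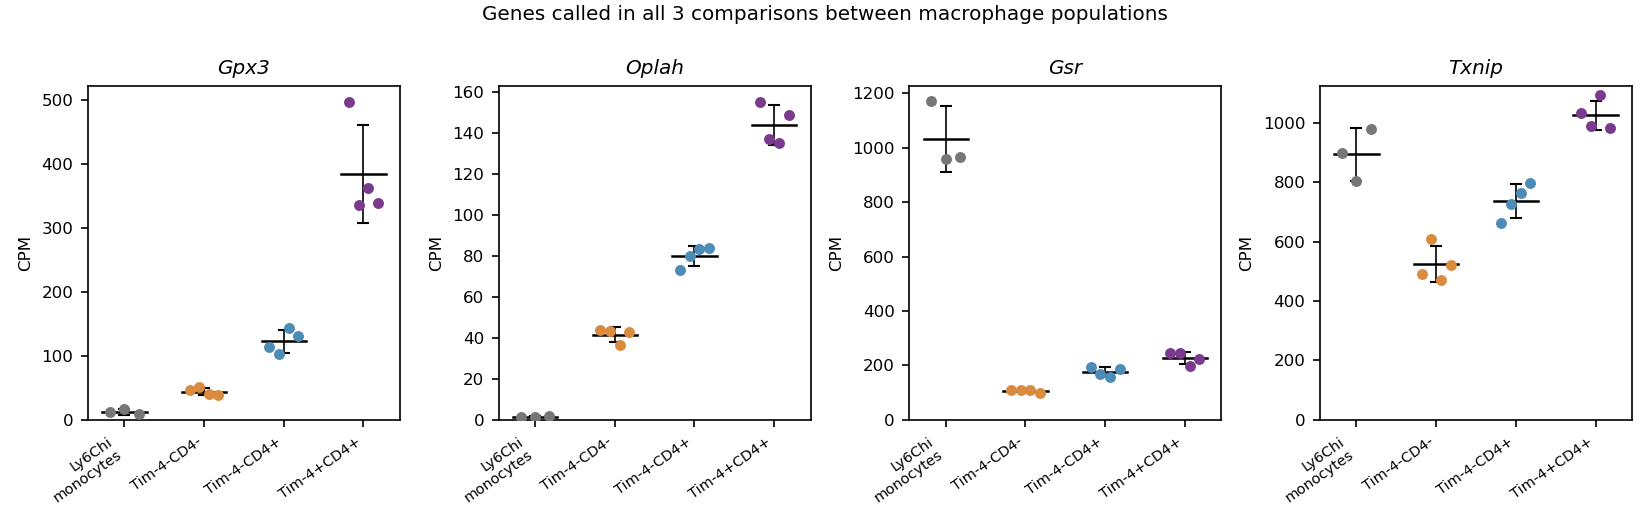
Level in CPM by library of Gpx3, Oplah, Gsr and Txnip, with group means as lines and 1 SD as bars, on linear axes that start at 0 (3 monocyte libraries and 4 of each macrophage population). Among macrophages all 4 genes were lowest in the Tim-4-CD4- and highest in the Tim-4+CD4+ population, while monocytes were lowest for Gpx3 and Oplah (12.7 and 1.58 CPM on average) and highest for Gsr (1033 CPM). The genes shown were picked because they were called in all 3 comparisons between macrophages.

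The genes with the profile most like that of 6 members were found by the root-mean-square difference of centered log2 CPM over the 15 libraries, among 11798 genes with a mean of at least 1 CPM. For Selenop these were Abcg2 (0.11) and Itgb5 (0.13), for Gpx1 Siva1 (0.09) and Coro1a (0.10), for Gpx4 Nt5c (0.08) and Sec11c (0.09) and for Txnrd1 Actn4 (0.07) and Smarca4 (0.08). Gpx3 had no gene as near, with Phkg1 at 0.47 and Slc22a17 at 0.50, and Slc22a17 went from 0.586 CPM in monocytes to 2.46, 4.66 and 25.3 CPM in macrophages. For Gpx7 the nearest were Calhm6 (0.72) and Crispld2 (0.73). With a prior count of 0.5 in place of 2, both genes were the same for Gpx1, Gpx4, Txnrd1 and Selenop, and 1 of 2 for Gpx3 and Gpx7.

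Promoter windows from 250 bases before to 50 after a gene start were available for all 7 members in RefSeq on GRCm38.p6, 14 windows in all. The core of the antioxidant response element bound by Nrf2, searched as TGACNNNGC on both strands, matched in 1 of them, the Txnrd1 window chr10:82858956-82859255, as GCTTTGTCA on the strand of the gene, 92 bases before the start. Over all 32851 mouse windows of the same length 12.4% held a match. The PU.1 core GAGGAAG matched in 4 member windows, of Gpx3, Txnrd1 and Selenop, where the 2 Selenop windows overlap and hold the same site, against 13.6% of all windows, and the Maf core TGCTGAC and the E-box CACGTG matched in none, against 4.67% and 7.15%. The antioxidant response element core and the Maf core can overlap in the letters TGAC.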

How the data were processed

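The authors prepared strand-specific libraries from poly(A) RNA of sorted cells, trimmed the reads with Trimmomatic, aligned them with STAR to GRCm38.p4 and, from the uniquely mapped ones, made the deposited raw counts per gene with HTSeq on GENCODE vM11. The submitters' processing notes name bcl2fastq 2.17.1.14, Trimmomatic 0.36, HTSeq 0.6.1p1 and DESeq2. A second block of 15 columns per sample, of the same names, held normalized values and was not used. Every gene in the table had at least 16 counts in total.

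Samples were grouped by their titles. From the counts, low genes were removed with filterByExpr by population, which left 15802, and library sizes were scaled with TMM. One quasi-likelihood fit over the 15 libraries (edgeR 4.0.16, limma 3.58.1, R 4.3.3) gave 6 comparisons, with Benjamini-Hochberg adjustment over all genes tested and a threshold of 0.05. Floors cover counting error only, as no molecular identifiers were used. On simulated counts with 200 changed genes, modelled on these libraries, 88.5% of the changes were recovered among 15155 genes and 5.3% of the calls were false. These rates describe that simulation, which changed fewer genes than were called in any of the 6 comparisons (539 to 11196). Whether they hold for those comparisons, above all the comparisons with monocytes, was not tested. Log2 CPM in the likeness of profiles had a prior count of 2. Levels per kb used the exon bases of GENCODE M21, a later release than that of the count.

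The members and the 9 pathway lists and marker lists were chosen with earlier results of these data known. All members, other selenoproteins and other glutathione peroxidases could be named, and in the remaining lists up to 3 genes in each direction with the largest change among those called in a comparison, together with the 2 genes most like each member, of which those for Gpx8 are not reported here. Genes outside this rule, Gclc, Gclm and Hmox1, were named after their values were seen. Alternatives were the DESeq2 1.42.0 Wald test, RLE scaling, no filter, fits of only 2 populations, the replicate number as a block, other prior counts and leaving out each library. Deviations of same-numbered macrophage libraries had correlations of -0.27 to 0.20 by title numbers and -0.28 to 0.36 by description numbers, over 12 pairs of libraries each. For description number 4 every pair was positive (0.36, 0.19 and 0.26). Such ranges cannot exclude that populations were sorted from the same pools. The main fit took no pairing, and both numberings were tried as a block.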

Additional observations from a re-analysis of the deposited data

Results flagged for a closer look

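In 16 of 162 sets of 4 macrophage libraries, a set being 1 gene in 1 population, 1 library lay farther from the others than Dixon's test allows, where chance gives about 1 in 20. Tim-4+CD4+ replicate 1 was that library in 7 of them: it was high for Gpx3 (498 CPM, the others 336 to 363), Gpx4 (82.4, the others 56.4 to 60.2), Prdx5 (467, the others 311 to 329), Selenoh (13.8, the others at most 11.3) and Selenow (132, the others 80.2 to 86.9), and low for Acsl4 (48.3, the others 77.7 to 79.4) and Keap1 (45.9, the others 49.6 to 50.2). Gss was low at 10.7 CPM in Tim-4+CD4+ replicate 3. Among Tim-4-CD4+ libraries, Gpx7 was high at 0.269 CPM and Osgin1 at 62.2 CPM in replicate 3, Txnrd1 low at 45.4 CPM in replicate 4, and in replicate 1 G6pdx high at 116 CPM and Prdx5 low at 315 CPM. Among Tim-4-CD4- libraries, Lrp8 was low at 0.469 CPM and Sod2 high at 91.7 CPM in replicate 2, and Oplah low at 36.3 CPM in replicate 3. What sets these libraries apart was not tested.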

How the results depend on the processing

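Direction was checked for the members and, in each comparison, for the pathway genes that the naming rule admitted. No called difference among these changed its direction under any alternative, and other called pathway genes were not checked. The number of pathway genes called for Tim-4-CD4+ against Tim-4-CD4- macrophages, 11, ran from 7 to 13 when 1 library was left out. With the replicate number as a block, which the labels do not show to pair libraries, that count was 9 by title numbers and 11 by description numbers, and for Tim-4+CD4+ against Tim-4-CD4+ macrophages it was 2 in place of 3 in both blocks. The members called stayed within 1 of the main number in each comparison. Of member differences, 911 alternative values moved by less than 1 SD and 12 by more, those of Gpx3, Gpx7 and Txnrd1 against monocytes without 1 monocyte library and those of Gpx8 with a prior count of 2 (2.96, 3.11 and 3.503). Without monocyte replicate 1, the log2 differences of Gpx7 from monocytes were 2.62, 2.89 and 3.11. Of the values of the pathway genes that the naming rule admitted, 2983 stayed on their side of the threshold and 116 did not. Gpx7, Gpx8, Gpx2, Sod3, Alox15 and Me1 are limited by depth in monocytes, where Alox15 and Me1 had at most 3 counts in any library.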
